A study of Mus musculus with 6 samples.

Results

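The interleukin-1 (IL-1) family was followed as 10 genes chosen by symbol: the cytokine genes Il1a, Il1b, Il18 and Il33, the antagonist gene Il1rn, the receptor genes Il1r1, Il1r2, Il1rap and Il1rl1, and Nlrp3. A gene was measured through the array row that carried its symbol alone in the platform's annotation. This gave values for 8 of the 10 among 19938 genes, with 1 row each, and Il1r1 and Il1rl1 were not analysed here. RNA of the colon of 6 mice was hybridised to Affymetrix Mouse Gene 1.0 ST arrays, 1 mouse per array, with 3 mice in each of 2 groups. The mutants, VilCre;Ihhflox/flox, carry floxed alleles of Ihh (Indian hedgehog) and a Cre recombinase under the promoter of villin, a gene of the gut epithelium. The controls are labelled wild type, and whether they carried a floxed allele or Cre is not given in the sources used here. A mutant and a control of the same number are littermates per the design text, which puts harvest at postnatal day 12, while the growth protocol gives day 9 to 12. The comparison asked which of these genes differ between the colon of mutants and that of controls. Values are RMA (robust multi-array average) expression on the log2 scale, every change is mutant minus control littermate, and a gene was called at a limma adjusted p under 0.05 over all genes tested.

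The IL-1 family comprises secreted alarm signals of innate immunity. IL-1 alpha and IL-1 beta bind the receptor IL-1R1, which signals together with the accessory protein encoded by Il1rap. The protein of Il1rn occupies that receptor without signalling, and the protein of Il1r2 is a decoy that binds IL-1 but has no signalling domain. IL-18 and IL-33 use related receptors, that of IL-33 being encoded by Il1rl1. IL-1 beta and IL-18 are made as inactive precursors, which caspase-1 cleaves after a sensor such as NLRP3 has assembled an inflammasome. In the gut, IL-1 beta comes largely from myeloid cells, IL-18 from epithelium, and IL-33 from stromal and other barrier cells.

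Of the 8 genes, Il1b was higher in the mutant colon, 0 were called lower and 7 were not called. Over all 19938 genes 1.66% were called higher and 2.11% lower. The change of Il1b was 3.50-fold, and those of Il1a, Il18 and Nlrp3 were at or under 0.06 on the log2 scale in either direction. Il33 and Il1r2 lay above their controls in each litter but missed the threshold.

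The tissue and genotype labels were checked first. The epithelial gene Vil1 (villin) stood at 11.50 ± 0.08 in controls and 11.48 ± 0.06 in mutants, and the intestinal transcription factor gene Cdx2 at 9.59 ± 0.18 and 9.79 ± 0.43 (SD, n = 3 each). The colonocyte genes Car1 and Slc26a3 stood higher in every mutant than in any control, by 0.63 and 0.51, and were not called (limma adjusted p = 0.0570 and 0.0755). Aqp8, another marker of colon epithelium, went the other way, from 12.68 ± 0.09 to 11.39 ± 0.50 (SD). It was called lower, at -1.29 ± 0.18 (SE, adjusted p = 0.0107). Markers of small intestinal epithelium had a mean level of 6.98 to 7.20 in controls and 7.40 to 7.55 in mutants, and 1 of 10, Fabp2, was called higher (0.73 ± 0.15, SE). That call ended without litter 1 (adjusted p = 0.144) and without litter 3 (0.0914). Apoa4 and Fabp6 stood at 1.19 and 1.07 and were not called. The median change of the 10 was 0.15, and Gata4, Onecut2, Apob, Lct and Sis stood at 0.08 to 0.13. In 5 of the 10 all mutants lay above all controls, against 10% of all genes. Ihh itself changed by -0.30 ± 0.09 (SE) and was not called (adjusted p = 0.139). The hedgehog receptor and target gene Ptch1 fell by 1.44 ± 0.09, and the hedgehog-induced Hhip fell by 2.16 ± 0.13 (adjusted p = 0.000493 for each). Xist, the RNA of the inactive X chromosome, split the mice into 3 with values of 11.92 to 12.03 (1 control, 2 mutants) and 3 with values of 5.83 to 6.41. The mutant and the control differed in this in all 3 litters, so sex and genotype were not balanced. The control had the high value in litter 1, and the mutant had it in litters 2 and 3. In every fit without litter 1, sex and genotype therefore cannot be told apart. The arrays carry no counts, and their number limits the precision.

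The promoters of Il1b and Il1a are shown because these agonist genes lie near each other on chromosome 2, with no other protein-coding gene between them in RefSeq, and only Il1b was called. Both come from the RefSeq table of GRCm38.p6, on the minus strand, and run from 250 bases before to 50 bases after the start. They are written 5′ to 3′ along the gene, with the motif matches of a 5-motif search in capitals. The Il1b window lies at chr2:129371090-129371389 and the Il1a window at chr2:129309923-129310222.
Il1b promoter: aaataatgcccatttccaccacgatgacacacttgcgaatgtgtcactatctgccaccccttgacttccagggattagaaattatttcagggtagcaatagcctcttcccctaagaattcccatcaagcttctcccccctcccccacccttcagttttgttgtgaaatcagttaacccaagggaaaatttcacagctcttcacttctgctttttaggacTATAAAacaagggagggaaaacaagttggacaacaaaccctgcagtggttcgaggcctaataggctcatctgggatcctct
Il1a promoter: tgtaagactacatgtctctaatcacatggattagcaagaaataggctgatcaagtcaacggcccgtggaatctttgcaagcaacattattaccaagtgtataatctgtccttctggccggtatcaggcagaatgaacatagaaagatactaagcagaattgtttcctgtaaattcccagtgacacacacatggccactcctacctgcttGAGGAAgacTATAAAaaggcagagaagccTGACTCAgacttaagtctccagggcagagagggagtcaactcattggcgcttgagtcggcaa
The motifs searched on both strands were NF-kB (its usual consensus), AP-1 (TGANTCA), C/EBP (TTGCNNAA), PU.1 (GAGGAA) and the TATA box (TATAAA). The Il1b window held 1 match, a TATA box from -31 to -26 relative to the start. The Il1a window held a TATA box from -32 to -27, a PU.1 match from -41 to -36 and an AP-1 match from -12 to -6, none overlapping another. Of 32851 windows of 300 bases in the table, 13.6% held the TATA motif, 28.3% PU.1, 7.81% AP-1, 10.8% C/EBP and 8.46% NF-kB. Among the 12 windows of the 8 measured genes 6 held TATA, 3 PU.1, 2 AP-1, 1 C/EBP and 1 NF-kB, the last in a window of Nlrp3. The windows of Il1r2 and Il1rap held none of the 5. A match is a stretch of letters in a short window and does not show binding.

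Il1b encodes IL-1 beta, the inducible agonist. It stood at 6.43, 6.04 and 6.18 in controls 1 to 3 and at 7.87, 8.05 and 8.16 in mutants 1 to 3. Every mutant lay far above every control, and the spread within a group was small (6.22 ± 0.20 against 8.03 ± 0.14, SD, n = 3 each). The changes in litters 1, 2 and 3 were 1.44, 2.01 and 1.97. The fitted change was 1.81 ± 0.12 (SE; 95% interval 1.52 to 2.09; limma adjusted p = 0.000664), which placed Il1b at rank 15 of 19938 genes by p. The difference of group means was 1.67 among the mice with high Xist (2 mutants, 1 control) and 1.76 among those with low Xist (1 mutant, 2 controls), too few for a test. When this fit was run over all 35557 rows of the table, unnamed rows included, the change was the same but its error rose to 0.14 and the adjusted p to 0.0692, and 1 row was called higher and 1 lower in all. In whole tissue, more cells of a type and more RNA per cell cannot be told apart.

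Il1a encodes IL-1 alpha, the agonist that needs no inflammasome for activity. Its values were 4.03, 4.09 and 4.14 in controls and 3.99, 4.15 and 4.21 in mutants. The groups overlapped and the change was 0.03 ± 0.08 (95% interval -0.16 to 0.21; adjusted p = 0.938). Il1a was among the dimmest 30% of genes, as were Il1r2 and Nlrp3. Il1bos, the noncoding gene that overlaps the start of Il1b in RefSeq and has a row of its own, changed by -0.13 ± 0.09 (adjusted p = 0.558).

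Il18 encodes IL-18, which epithelium makes without prior stimulation. It read 8.58, 8.87 and 8.67 in controls and 8.97, 8.79 and 8.23 in mutants. Mutant 1 was the highest of the 6 and mutant 3 the lowest, so the groups overlapped fully. The litters gave 0.39, -0.08 and -0.44, and the fit -0.04 ± 0.15 (95% interval -0.38 to 0.29; adjusted p = 0.947). Markers of colon epithelium had a mean level of 10.68 to 10.73 in controls and 10.65 to 10.79 in mutants. Of 14, 1 was called higher (Krt18, 0.60 ± 0.08) and 1 lower (Aqp8, -1.29 ± 0.18). The number called higher was up to 4 (with array weights), and the number lower was 3 without litter 1.

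Il33 encodes the nuclear alarmin IL-33. Its controls read 6.94, 7.15 and 7.56 and its mutants 7.75, 8.29 and 7.64. The groups did not overlap, but control 3 and mutant 3 lay close together, with litter changes of 0.81, 1.14 and 0.07. The fitted change was 0.67 ± 0.18 (95% interval 0.26 to 1.09) and was not called (adjusted p = 0.0922). Without litter 3 it was 0.98 ± 0.13 and was called (adjusted p = 0.00152), whereas without litter 1 or litter 2 it was 0.61 or 0.44 and was not. The difference was 1.02 among the mice with high Xist (2 mutants, 1 control) and 0.39 among those with low Xist (1 mutant, 2 controls), too few for a test. Of 12 measured markers of mesenchyme, muscle and endothelium 0 rose and 5 fell (median -0.30), a count that became 3 without litter 1, 3 without litter 3, 1 when Xist replaced the block and 0 over all rows. Their part in the value of Il33 was not tested.

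**Figure D1:**
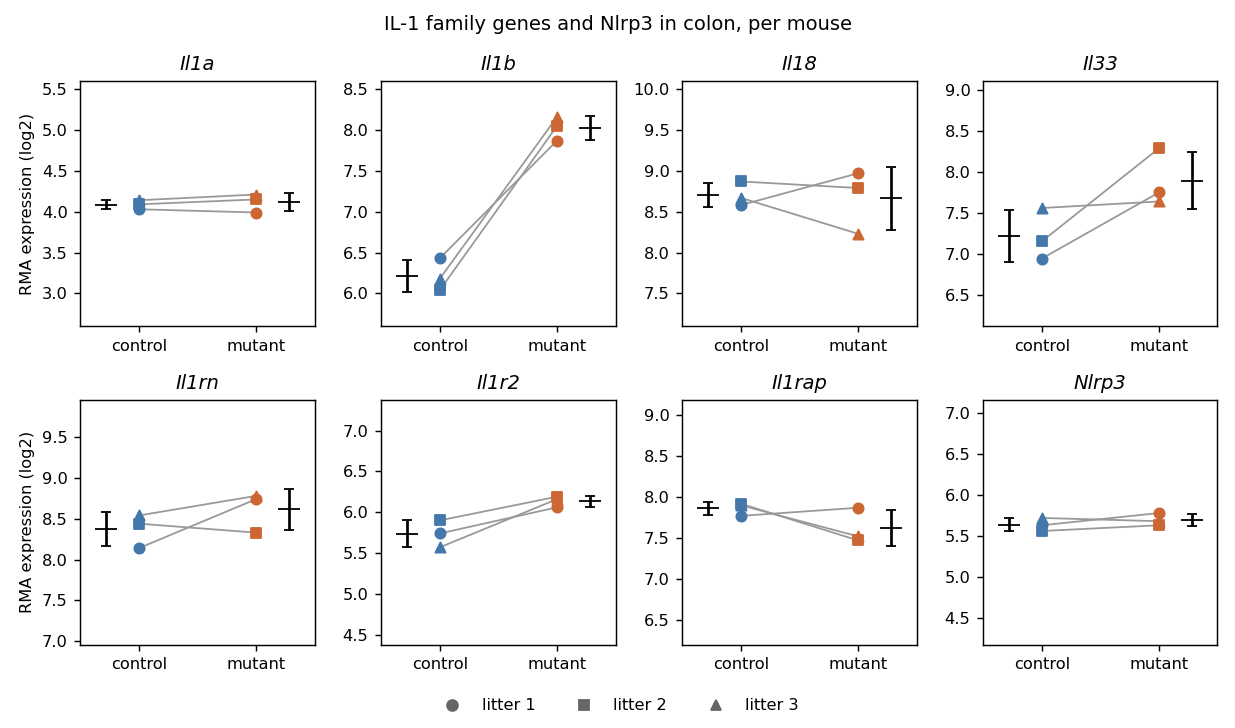
RMA expression (log2) of the 8 measured genes in each mouse, with controls in blue, mutants in orange, marker shape for the litter, grey lines between littermates and black bars for the group mean ± SD (n = 3). Each panel spans the same range of log2 units. The Il1b mutants sit at 7.87 to 8.16, above controls at 6.04 to 6.43, while the groups of Il1a, Il18, Il1rn, Il1rap and Nlrp3 overlap.

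Among the genes that restrain IL-1, Il1rn encodes the receptor antagonist. It stood at 8.14, 8.44 and 8.54 in controls and 8.74, 8.33 and 8.78 in mutants. Mutants 1 and 3 were the highest of the 6 and mutant 2 lay among the controls. The change was 0.24 ± 0.13 (95% interval -0.06 to 0.54; adjusted p = 0.455), and by litter 0.60, -0.11 and 0.24.

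Il1r2, the decoy receptor gene, read 5.74, 5.90 and 5.57 in controls and 6.06, 6.19 and 6.16 in mutants. All mutants lay above all controls, by 0.32, 0.30 and 0.59 in litters 1, 2 and 3. The change of 0.41 ± 0.09 (95% interval 0.19 to 0.62) narrowly missed the threshold, with adjusted p = 0.0570. It was called with the litter as a random block (adjusted p = 0.0478) and with array weights (0.0229), and over all alternatives the adjusted p ran from 0.0229 to 0.338, the highest without litter 3.

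Il1rap encodes the accessory chain shared by the receptors of IL-1, IL-33 and IL-36. It stood at 7.77, 7.92 and 7.90 in controls and 7.87, 7.47 and 7.52 in mutants. Mutants 2 and 3 were the lowest of the 6 and mutant 1 lay among the controls. The change was -0.24 ± 0.12 (95% interval -0.51 to 0.03; adjusted p = 0.399). With litter 1, 2 or 3 left out the change was -0.41, -0.14 or -0.17 (adjusted p = 0.0539, 0.829 and 0.843). With array weights it was -0.33 (0.0932), and in the fit that added Xist, which was high in mutants 2 and 3, it was -0.15 (0.313). Without litter 1 the mutants left had high Xist and the controls low, so sex and genotype cannot be told apart in that fit. The part of sex in these values was not tested.

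Nlrp3, the inflammasome sensor gene, had control values of 5.63, 5.56 and 5.72 and mutant values of 5.78, 5.63 and 5.68. The groups overlapped and the change was 0.06 ± 0.08 (95% interval -0.13 to 0.26; adjusted p = 0.831).

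Across the 8 genes the median change was 0.15, against 0.01 over all genes. In 3 of the 8 (Il1b, Il33 and Il1r2) all mutants lay above all controls, which 10% of all genes did, and in 0 of the 8 all mutants lay below, which 9.78% of all genes did. The same 3 had an unadjusted limma p under 0.05 and 0 had one in the lower direction, against 7.05% of all genes higher and 8.03% lower.

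**Figure D2:**
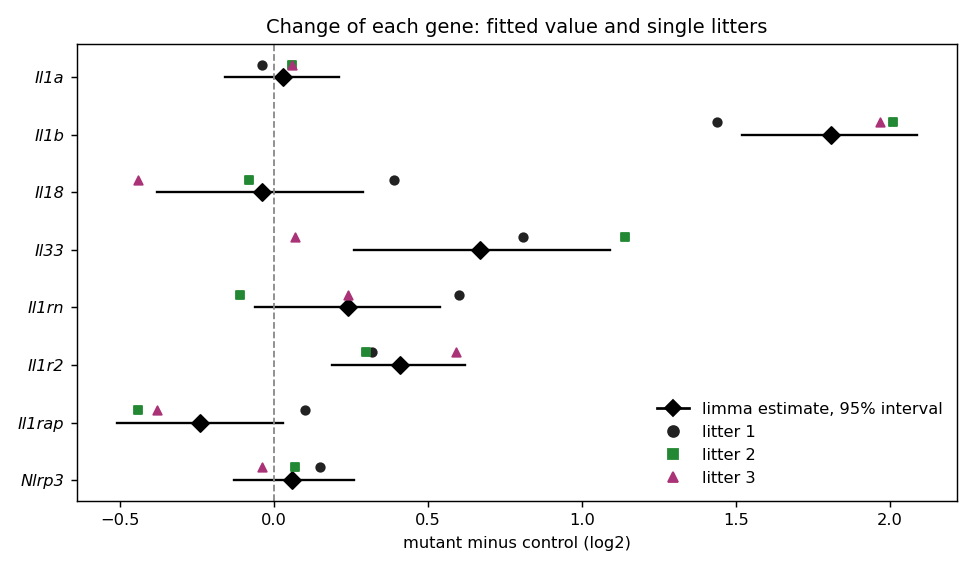
Mutant minus control (log2) for the 8 measured genes, with the limma estimate as a black diamond, its 95% interval as a line, and the change in each litter as coloured markers above it. Il1b stands apart at 1.81 with litters from 1.44 to 2.01, Il33 ranges from 0.07 to 1.14 between litters, and the litters of Il18 fall on either side of 0.

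The change of Il1b was set against those of other members within the same mice, 5 pairs in all. Relative to its antagonist Il1rn, Il1b changed by 0.84, 2.12 and 1.73 more in litters 1, 2 and 3 (mean 1.56 ± 0.65, SD, n = 3 litters). Relative to the decoy receptor gene Il1r2 the excess was 1.40 ± 0.30, and relative to Il1a it was 1.78 ± 0.26. Against Il18 and Il33 it was 1.85 ± 0.72 and 1.13 ± 0.68. Il1b had the larger change in 3 of 3 litters in each pair. It is the member with the largest fitted change, so a mean excess over each other member follows from that. Il1a and Il1r2 were among the dimmest 30% of genes. With 3 litters the exact two-sided sign-flip test cannot go below p = 0.250, which is the value each pair reached, also after Benjamini-Hochberg adjustment over the 5.

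Of 12 other ligands and receptors of the family, with a median change of -0.01, 0 were called in limma, with 1 higher and 0 lower at an unadjusted p under 0.05. That 1 was Il1f9, the IL-36 gamma gene, at 0.37 ± 0.09 (adjusted p = 0.0668). Of the 12 genes 9 were among the dimmest 30%, Il1f9 included. The other genes between Tbpl2 and Il1rn on chromosome 2, which encode the IL-36 ligands, their antagonist and a further relative, read -0.17 for Il1f8, -0.07 for Il1f6, -0.03 for Il1f5 and 0.02 for Il1f10. On chromosome 1 Il1r2 heads a run of receptor genes in RefSeq order. The measured ones after it read 0.00 for Il1rl2 (IL-36 receptor), -0.03 for Il18r1 and -0.02 for Il18rap (the IL-18 receptor chains). The genes flanking this run were also not called, with Map4k4 at -0.27 (adjusted p = 0.172) and Slc9a4 at 0.35 (adjusted p = 0.0621). Genes that were not called were named here and below after their values were seen.

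Below the receptor, Irak3, an inhibitory relative of the IL-1 receptor kinases that is found mainly in myeloid cells, rose by 0.49 ± 0.09 (adjusted p = 0.0223; 0.63, 0.44 and 0.41 by litter). It was the 1 gene called among 23 measured kinases, adaptors and NF-kB factors, none of which was called lower, and the median of the list was -0.00. The adaptor gene Myd88 stood at 0.18 ± 0.08 (adjusted p = 0.365), and the kinase genes Irak1 and Irak2 at -0.02 and -0.06.

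Of 17 measured inflammasome sensors, adaptors and effectors 0 were called in limma in either direction, with 3 higher and 4 lower at an unadjusted p under 0.05 and a median of 0.00. Casp1, the protease that matures IL-1 beta, went from 9.95 ± 0.05 to 9.72 ± 0.03 (SD, n = 3 each), a change of -0.23 ± 0.08 (adjusted p = 0.201). Its adaptor gene Pycard changed by -0.22 ± 0.08 (adjusted p = 0.251). Both were lower in 3 of 3 litters. Casp4, the mouse gene of caspase-11, had the largest value of the list, 0.69 ± 0.18 (adjusted p = 0.0897), and varied from 0.08 in litter 2 to 1.18 in litter 3. The sensor genes Nlrc4 and Nlrp6 stood at 0.30 each (adjusted p = 0.126 and 0.269) and Aim2 at 0.00. The number called higher was 1 without litter 2 and 1 with Xist beside the block.

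Among 28 measured genes that IL-1 is known to induce, 6 rose, 1 fell and 21 were not called, with a median of 0.16. Cxcl5, a neutrophil chemoattractant, rose by 1.33 ± 0.13 (adjusted p = 0.00258), and Lcn2, lipocalin 2, which withholds iron from bacteria, by 1.22 ± 0.13 (adjusted p = 0.00408). Timp1, a metalloproteinase inhibitor, rose by 0.89 ± 0.10 and Mmp3, the metalloproteinase stromelysin 1, by 0.85 ± 0.09. The other 2 that rose were Nos2 (0.64 ± 0.13), inducible nitric oxide synthase, and Nfkbiz (0.43 ± 0.08), a nuclear cofactor of NF-kB. The 1 gene that fell was Steap4, a metalloreductase, by 0.90 ± 0.14 (adjusted p = 0.0170). Several others of the list were not called: Cxcl2, another neutrophil chemoattractant, at 0.66 ± 0.15 (adjusted p = 0.0556), the acute phase gene Saa3 at 0.82 ± 0.20 (adjusted p = 0.0741), Il6 at 0.36, Ptgs2 (cyclooxygenase 2) at 0.16 and Cxcl1 at 0.11. Of the 28 genes 9 were among the dimmest 30%, Cxcl5, Mmp3, Cxcl2 and Il6 included. With array weights 10 genes of the list were called higher, and 0 were over all rows of the table. Nos2 was not called without the litter block (adjusted p = 0.0761), with the litter as a random block (0.0583) or without litter 1 (0.133), nor Nfkbiz without litter 2 (0.0838) or litter 3 (0.162). Such genes respond to other signals too.

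Of 11 measured genes induced through IL-33 or IL-18, 0 were called in limma, with 1 higher and 1 lower at an unadjusted p under 0.05 and a median of 0.02. The type 2 cytokine genes Il5 and Il13 stood at 0.19 and -0.07, and 9 of the 11 were among the dimmest 30%.

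**Figure D3:**
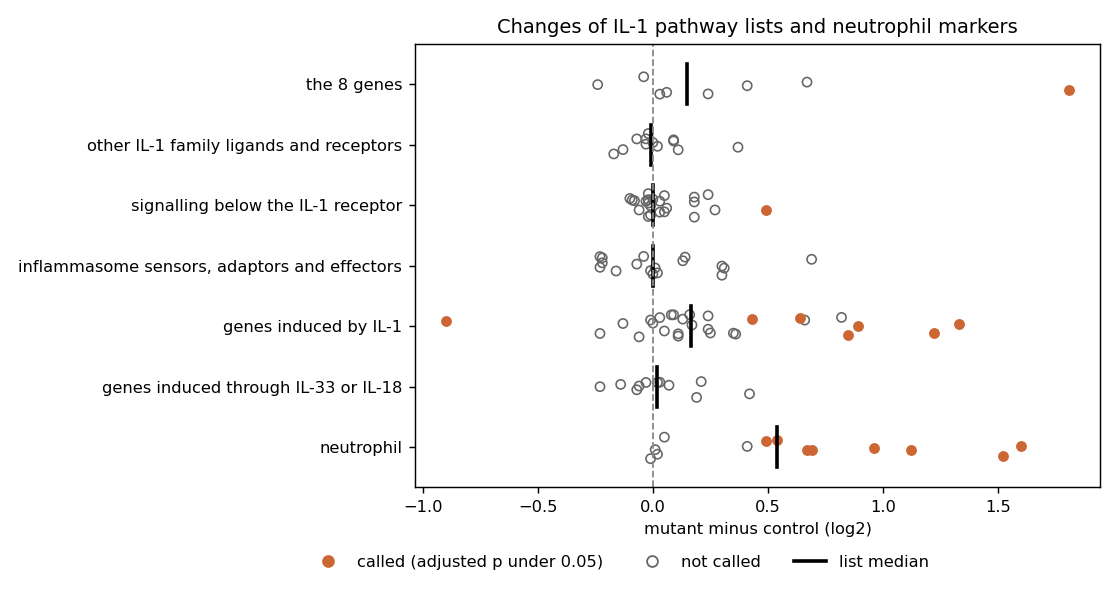
Mutant minus control (log2) for the 8 measured genes, 5 lists of other IL-1 pathway genes and the neutrophil markers, each circle a gene, filled where called, with the list median as a black bar and vertical scatter only to separate points. Called genes lie mainly among genes induced by IL-1 (6 higher, 1 lower) and neutrophil markers (8 higher).

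Markers of blood-borne and myeloid cells were set beside Il1b. Of 13 measured neutrophil markers 8 rose and 0 fell, and their mean level was 5.41 to 5.47 in controls and 5.82 to 6.33 in mutants. The chemokine receptor gene Cxcr2 rose by 1.60 ± 0.10 (adjusted p = 0.000493), and the calprotectin genes S100a8 and S100a9 by 1.52 ± 0.23 and 0.96 ± 0.12. Retnlg, a resistin-like gene of neutrophils, rose by 1.12 ± 0.18. The 5 not called were Mmp9, Ngp, Camp, Elane and Mpo, with values of -0.01, 0.41, 0.02, 0.05 and 0.01. The granule protein genes Ltf and Mmp8, which like Ngp and Camp are transcribed mainly in immature granulocytes, rose by 0.49 ± 0.09 and 0.67 ± 0.12. By litter, in the order 1 to 3, the median of these markers, the 5 not called included, was 0.40, 0.53 and 0.84. Il1b had 1.44, 2.01 and 1.97, Cxcr2 1.38, 1.61 and 1.81, and S100a8 0.74, 1.58 and 2.23. Of the 13 markers 10 were among the dimmest 30%. The count of 8 became 5 without the litter block, 5 without litter 3, 3 when Xist replaced the block, and 0 over all rows. In the fit without the dimmest genes, which leaves out 10 of the 13 markers, the count was 2. Of 2 measured blood markers 1 was called higher. This was Alas2, an enzyme of haem synthesis in red cell precursors, at 0.37 ± 0.08 (adjusted p = 0.0490), or 0.30, 0.39 and 0.43 by litter. The call ended with each litter left out (0.0522, 0.149 and 0.254), with quantile normalization (0.0567) and with median centring (0.0560). The other marker, Slc4a1, stood at 0.15 and was not called. The array rows shared by the alpha globin genes stood at 0.69 and 0.68 and those shared by the beta globin genes at 0.46 and 0.42. They were higher in 3 of 3 litters and not called over all rows. That fit called 1 row higher in all, and Alas2 was not called in it either (limma adjusted p = 0.217).

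Macrophage and monocyte markers went both ways, with 3 rises and 1 fall among 15 and a median of -0.05. Ccr2, the receptor of recruited monocytes, rose by 0.80 ± 0.15 (adjusted p = 0.0290) although its groups overlapped, Itgam (CD11b, shared with neutrophils) by 0.52 ± 0.08 and Cd14 by 0.40 ± 0.08. Cx3cr1, a receptor of resident gut macrophages, fell by 0.46 ± 0.08 (adjusted p = 0.0216), and the lineage genes Csf1r and Adgre1 stood at -0.38 and -0.43 and were not called. Their mean level was 7.78 to 7.96 in controls and 7.77 to 8.05 in mutants. Without the litter block Ccr2, Itgam and Cd14 were not called (adjusted p = 0.185, 0.0515 and 0.0760), and without litter 3 Cx3cr1, Itgam and Cd14 were not (0.0682, 0.0546 and 0.259). Cx3cr1 was also not called without litter 2 (0.0580), nor Cd14 without litter 1 (0.0502) or litter 2 (0.0877). With the litter as a random block, Ccr2 and Cd14 were not called (0.143 and 0.0562). The number called lower was 3 without the dimmest genes and 3 with Xist beside the block, 2 with the trend and robust setting and 2 with array weights. The part that a change in these cells has in the value of Il1b was not tested.

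The 4 genes whose values were most like those of Il1b over the 6 arrays were Plet1, Cxcl5, Tnfrsf23 and Amph, with Pearson r of 0.998, 0.996, 0.994 and 0.993. Plet1, a surface protein of some epithelial and myeloid cells, rose by 1.06, 1.52 and 1.57 in litters 1, 2 and 3, and Cxcl5 by 0.92, 1.52 and 1.54, with the smallest change in litter 1, as for Il1b. The 6 arrays share the split into mutant and control, and 125 of 19937 genes reached r of 0.95 with Il1b, so a high r mostly restates that split. The 4 genes were picked by their values on these same arrays, which also favours a like order of litters. Only in litter 1 did the control and not the mutant have high Xist, and the part of sex in this order was not tested.

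**Figure D4:**
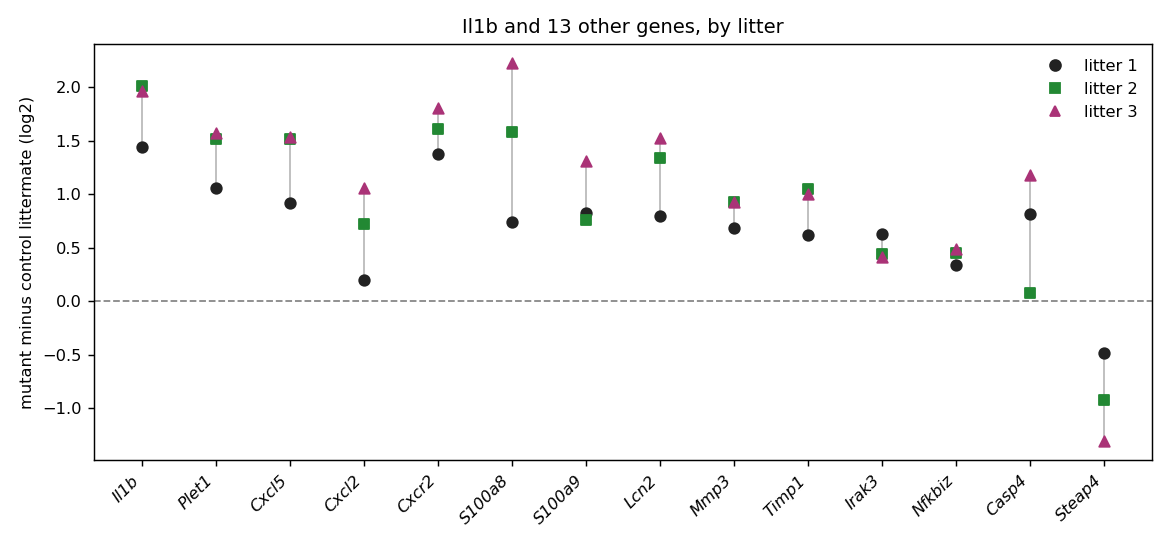
Mutant minus control littermate (log2) in each of 3 litters for Il1b and 13 other genes, with a grey line from the lowest to the highest litter. Litter 1 has the smallest change of the 3 for Il1b (1.44), Plet1 (1.06), Cxcl5 (0.92) and Lcn2 (0.80), whereas Irak3 has its largest there (0.63) and Steap4 lies below 0 in every litter. Plet1 and Cxcl5 are among the genes most like Il1b over these arrays, which favours a like order of litters. Only in litter 1 did the control and not the mutant have high Xist.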

How the data were processed

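The deposited values were log2 expression from 6 arrays, made by the authors with RMA per the submitters' processing notes. Its version and the genome build were not given in the sources used. The table held 35557 rows, of which 21789 had 1 gene symbol in the 2016 platform annotation, 1621 several and 12147 were unnamed here. Where a gene had several rows (999 genes), its brightest row by mean was kept. Array medians were 7.10 to 7.14, and arrays correlated at 0.9855 to 0.9936. Mutant and control were compared with limma 3.58.1 in R 4.3.3 (lmFit, eBayes, two-sided, Benjamini-Hochberg over 19938 genes), with the litter as a fixed block because the design text states littermates. As a check of the pairing, same-litter deviations from the group means correlated at 0.0128, 0.00516 and 0.0613. The fit has 2 residual and 5.85 prior degrees of freedom. It was also run on simulated data with independent noise and no litter or sex effect, which cannot show how it handles such effects. The genes and lists were chosen with earlier results of these data known, and lists are described without a set test. Named were all members, Ihh, Ptch1 and Hhip, up to 4 called genes per list by p and the 4 genes most like a called member, and all others after their values were seen. Il36 genes carry older symbols (Il1f5, Il1f6, Il1f8, Il1f9). Promoters were searched in Python 3.11.15, and protein sequences were not used here.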

Additional observations from a re-analysis of the deposited data

How the results depend on the processing

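The counts of calls and the changes of the member genes were recomputed under 14 alternatives, 11 of them planned and 3 chosen after seeing the data (the Xist level as a covariate with and without the litter block, and all rows of the table). Il1b was higher in all 14, by 1.70 to 1.99, and was called in 13 of them, with adjusted p from 3.4e-07 to 0.0692, the last over all rows. The number of member genes called higher was 2 with the litter as a random block and 2 with array weights (Il1b and Il1r2), 1 to 2 with each litter left out, and 0 over all rows. The number called lower was 0 throughout. Without the replicate block 1 member was called higher, 274 genes in all were called higher and 364 lower, and no member changed its call. Over all genes 512 were called higher and 734 lower with array weights, 558 and 672 with the Xist level beside the block, and 1 and 1 over all rows, where the prior degrees of freedom were 3.01 instead of 5.85. With each litter left out 247 to 403 were called higher and 299 to 484 lower. Without litter 1, sex by Xist and genotype cannot be told apart. Il18, not called in any fit, turned to 0.08 with the Xist level as a covariate, 0.08 with it and no block, and lay between -0.26 and 0.16 with a litter left out, the last without litter 3; the cause was not tested. The other members kept their direction in the alternatives that give them a value. The differences between pairs of members, the medians, the counts of genes whose groups do not overlap and the genes most like Il1b were not recomputed. Without the dimmest 30% of genes Il1a, Il1r2 and Nlrp3 have no value.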

Other observations

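The mast cell protease genes Mcpt1 and Mcpt2 fell by 1.52 ± 0.28 and 1.34 ± 0.12 (limma adjusted p = 0.0274 and 0.00159), while the other 9 of 11 mast cell markers were not called. Of the 11 markers 8 were among the dimmest 30%, Mcpt1 and Mcpt2 included. Mcpt1 was not called with eBayes set to trend and robust (adjusted p = 0.181) or when Xist replaced the block (0.0672). Over all rows neither was called (0.233 for Mcpt1 and 0.0842 for Mcpt2). Of 11 T cell and innate lymphoid markers 1 fell, Cd4, by 0.43 ± 0.09 (adjusted p = 0.0434, 0.0679 without the litter block, 0.0713 without litter 2 and 0.245 without litter 3), and of 6 B and plasma cell markers 0 were called in limma, with 0 higher and 1 lower at an unadjusted p under 0.05.

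A row that names the neutrophil stefin genes Stfa2l1 and Stfa2 together was outside the genes tested. It stood at 4.91 in controls and 7.10 in mutants, a change of 2.19 ± 0.36 that was higher in 3 of 3 litters, with limma adjusted p = 0.159 over all rows. The rows shared by the haemoglobin genes Hba-a1 and Hba-a2 changed by 0.69 and 0.68 (adjusted p = 0.177 and 0.180), and those shared by the beta globin genes by 0.46 and 0.42 (0.235 and 0.348).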
